A study of Mus musculus with 4 samples.

Results

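Xiap knockout and wild-type mouse embryonic fibroblasts, both exposed to tumour necrosis factor (TNF), were compared across all genes of an Affymetrix U74Av2 array. All non-control probe sets with a single gene symbol were taken, which gave 10833 of 12488 probe sets and 8251 genes. Of these, 5852 genes were measured, meaning that at least 1 of both arrays lay above a signal floor of 92.5. The comparison used 1 array of Xiap knockout cells and 1 of wild-type cells, each from confluent cultures given 20 ng/ml TNF for 4 hours. The remaining 2 arrays of the series hold the unstimulated cultures of the same genotypes. Signals below are given in the order unstimulated wild-type, unstimulated knockout, TNF-treated wild-type and TNF-treated knockout. With 1 array per group there are no replicates, so no difference between 2 arrays has a test or a replicate check. The sources used here do not state the knockout allele, the strain, the sex of the embryos or the number of lines behind each culture, and genotype cannot be told apart from any other difference between the cultures.

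The protein made from Xiap, X-linked inhibitor of apoptosis, binds and inhibits caspases and also carries a ubiquitin ligase domain. TNF acts through its receptors on NF-kB and MAP kinases, and in fibroblasts it turns on chemokines, adhesion molecules and cytokines. TNF can also induce some type I interferon, which acts back through the interferon receptor on antiviral genes. Embryonic fibroblasts are mixed mesenchymal cells whose Hox gene expression is known to reflect the body region they came from.

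Median non-control signals ranged from 151 to 183, with the lowest on the array of TNF-treated wild-type cells, and genes above the floor numbered 5426 to 5798. The ratio of 3' to 5' control probe sets ranged from 0.757 to 0.815 for Gapdh and from 1.08 to 1.17 for actin. Between both TNF arrays, 9 hybridisation spike controls above the floor differed by -0.92 to 0.11 on the log2 scale, with a median of -0.09. Of 14 fibroblast markers on the array, 13 were above the floor in TNF-treated wild-type and 12 in TNF-treated knockout cells. Their summed signal under TNF came to 100041 for wild-type and 83926 for knockout. Col1a1, Col1a2, Col3a1 and Postn differed by -0.18 to 0.13 on the log2 scale, whereas Thy1, Lum and Dcn, which are markers of the same list, had ratios of -2.66, -2.44 and -6.90, with Lum below the floor in the knockout, and S100a4 of that list one of 1.76, at 1226 and 4144. Of the markers of other cell types on the array, 7 of 13 for leukocytes (Ptprc and Itgam among them), 8 of 10 for epithelium, 5 of 8 for endothelium, 5 of 10 for skeletal muscle and 2 of 8 for adipocytes were below the floor on all 4 arrays. Past 2-fold under TNF were Csf1r of the leukocyte list, higher at 114 and 293 in wild-type and knockout, and, both lower, Lpl of the adipocyte list at 667 and 43.9 and Flt1 of the endothelial list at 1172 and 256. Cd14, at 1534 and 2402, and Myod1 and Myog were above the floor and under 2-fold. So were Cdh1 of the epithelial list, at 297 and 490, and Tubb3 of the neural and glial list, at 2240 and 3809. Of 9 neural and glial markers, 3 were above the floor in TNF-treated wild-type and 4 in TNF-treated knockout cells. For cartilage these were 1 and 2 of 7, and for bone 1 and 1 of 4. The summed signal in wild-type and knockout under TNF was 2147.5 and 3341.5 for the leukocyte list and 6941 and 7188 for the adipocyte list. It was 1353.5 and 454 for the endothelial list and 2805 and 4566 for the neural and glial list. The part of these lists in the results was not tested.

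Xiap itself had signals of 239, 180.5, 126 and 120 with its brightest probe set. The genotypes differed by -0.07 on the log2 scale under TNF and by -0.41 in unstimulated cells, and both signals under TNF were close to the floor of 92.5. Whether the Xiap probes lie within the deleted part is not known here, so this signal does not check the labels. The 4 X-linked neighbours of Xiap that were measured differed by -0.29 to -0.12 under TNF, with Lamp2 at -0.26 and Zdhhc9 at -0.29. Xist, the RNA that coats the inactive X chromosome of female cells, had signals of 34.3, 1232, 5.4 and 1601, and was at least 17.3-fold higher in the knockout under TNF. Eif2s3y, a Y-linked translation factor gene, had signals of 489, 2.8, 308 and 9.1, and was at least 3.33-fold lower. Kdm6a, which escapes X inactivation, was 2.24-fold higher, at 244 and 548 under TNF. The knockout cultures were thus high for Xist and below the floor for Eif2s3y in both states, and the wild-type cultures the reverse, so this difference and genotype cannot be told apart.

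Under TNF, the knockout signal exceeded the wild-type signal by 2-fold or more for 329 of 5852 genes measured (5.62%), and lay below it by as much for 293 (5.01%). Past 2-fold either way were thus 10.6% of all measured genes, the share to set beside each count of list members past 2-fold below. For 80 of the higher and 62 of the lower genes, 1 array was at the floor, so that the fold is a lower bound, written below as at least N-fold. The median log2 ratio of all measured genes was 0.07, with quartiles of -0.27 and 0.41. The balance between higher and lower genes depended on the scaling: with equal medians on all arrays, which moved the median ratio to -0.12, 240 genes were higher and 441 lower. On the array as deposited, the median ratio was 0.17 in the dimmest and -0.05 in the brightest of 5 equal classes of mean signal. No gene had measured probe sets past 2-fold in opposite directions. Among 59 higher genes with another measured probe set, that probe set was also past 2-fold in 26, moved the same way by less in 30, and went the other way in 3. Among 63 lower genes the corresponding numbers were 29, 30 and 4.

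**Figure D1:**
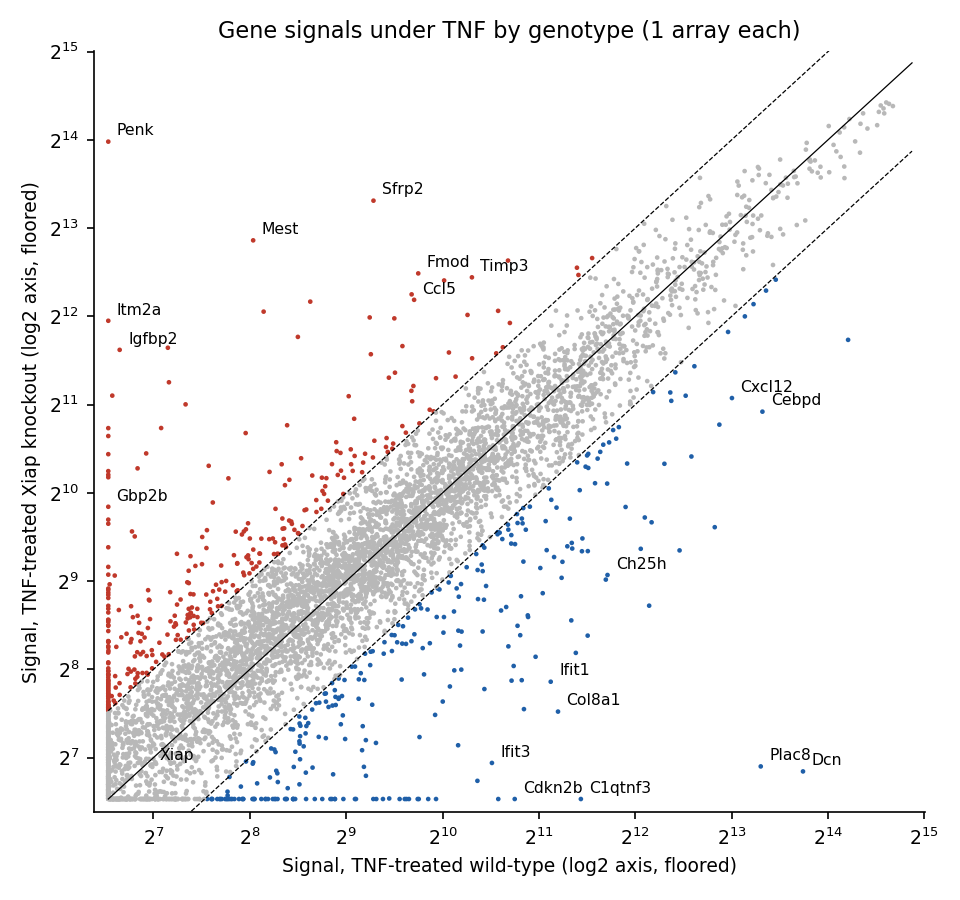
Floored signals of 5852 measured genes in TNF-treated wild-type (horizontal) and TNF-treated Xiap knockout cells (vertical), both on log2 axes, 1 array each. Red points are at least 2-fold higher and blue points at least 2-fold lower in the knockout, and the dashed lines mark 2-fold. Penk, Mest and Itm2a lie far above the diagonal, Dcn and Plac8 far below it, and Xiap lies on it near the floor.

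The largest difference upward was that of Penk and the largest downward that of Dcn. Penk, which encodes the opioid precursor proenkephalin, had signals of 118, 17354, 86.4 and 16162. It was near or below the floor in both wild-type cultures and among the brightest genes in both knockout cultures, at least 175-fold higher under TNF. Dcn, which encodes the collagen-binding proteoglycan decorin, had the opposite pattern, with signals of 15414, 124, 13693 and 115. It was 119-fold lower in the knockout under TNF. Plac8, first found in placenta, had signals of 9909, 96.4, 10104 and 119.5 and was 84.6-fold lower. Itm2a, a membrane protein gene of the X chromosome, was at least 42.8-fold higher, Igfbp2 31.4-fold, Mest 28.4-fold, Clec11a 23.1-fold and Capn6 22.5-fold. C1qtnf3 was at least 30.0-fold lower and Cdkn2b at least 18.6-fold lower. In each of these 10 genes, both arrays of 1 genotype lay above both arrays of the other.

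The unstimulated cultures, which share no array with the TNF cultures but may share the cell lines, gave a comparison of the same size. There 276 of 6062 genes (4.55%) passed 2-fold upward in the knockout and 285 (4.7%) passed it downward. Of the 329 genes higher under TNF, 178 were also at least 2-fold higher without it, which is 54.1% of the TNF list and 64.5% of the unstimulated list. Of the 293 lower genes, 176 were lower in both states, or 60.1% and 61.8% of the respective lists. A further 124 higher and 98 lower genes had the same direction at under 2-fold, while 25 and 6 had the opposite direction and the rest were not measured without TNF. Among larger differences under TNF, 56 of 61 genes at least 4-fold higher and 62 of 76 at least 4-fold lower were also past 2-fold without TNF. Across 5740 genes measured in both states, the log2 ratios of both states correlated at 0.81 (Pearson) and 0.67 (Spearman), given as a description since genes are not independent replicates.

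**Figure D2:**
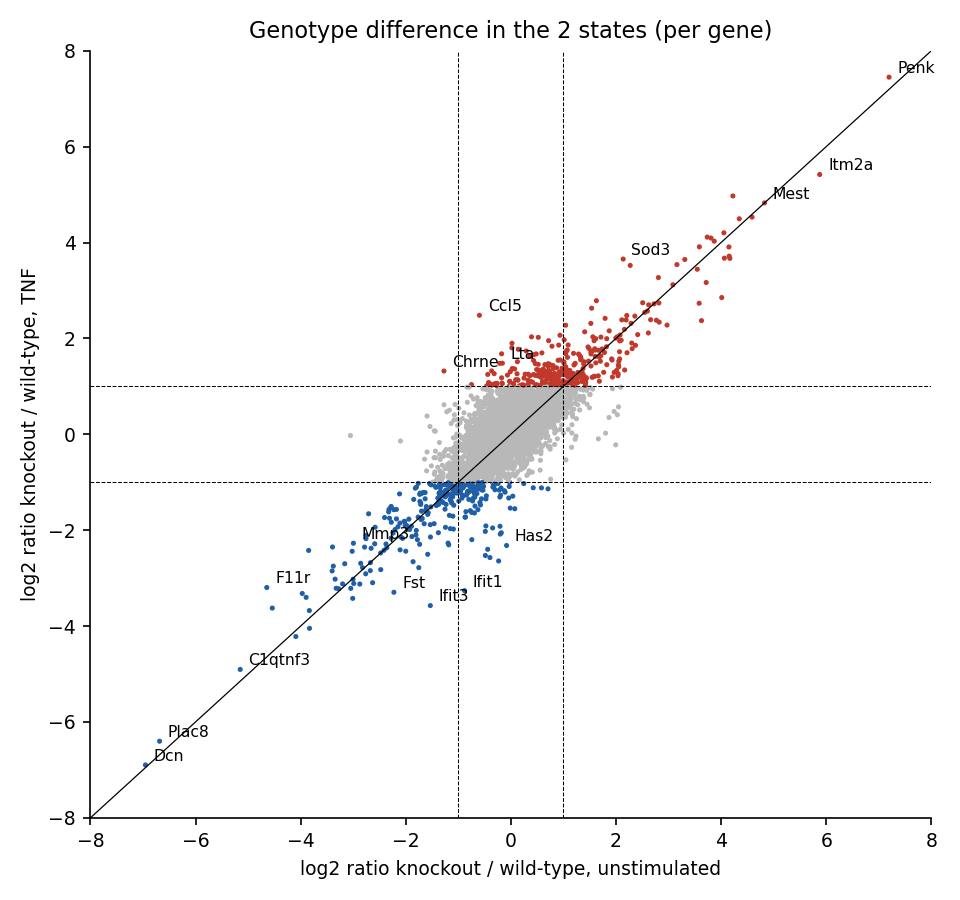
Log2 ratio of Xiap knockout to wild-type per gene in unstimulated cells (horizontal) and under TNF (vertical), from 4 arrays with no array in common between the axes. Red and blue points are at least 2-fold higher or lower under TNF, and dashed lines mark 2-fold on each axis. Penk, Itm2a, Dcn and Plac8 lie near the diagonal at both ends, whereas Ccl5, Ifit1 and Has2 lie off it.

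An additive fit of genotype and TNF over all 4 arrays (limma, Benjamini-Hochberg adjustment over 6174 genes) gave 705 genes higher (11.4%) and 642 lower (10.4%) in the knockout at an adjusted p under 0.05. Only 1 degree of freedom per gene is left for the error, which a true difference of response enlarges, and no replicate cultures stand behind it. On simulated data its false calls ran above 5%, so its adjusted p-values may be too small. Of the genes past 2-fold under TNF, 265 of the 329 higher and 253 of the 293 lower also passed it, an overlap built in part into the fit, which averages the same TNF ratio into its genotype effect. In limma's additive fit Penk differed by 7.32 ± 0.12 (SE, log2; adjusted p = 7.61e-07) and Dcn by -6.93 ± 0.11 (adjusted p = 7.61e-07).

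Several interferon-inducible antiviral genes had their highest signal in TNF-treated wild-type cells. Of 19 measured members of the list, 7 were at least 2-fold lower and 0 higher, or 36.8% beside 10.6% of all measured genes. The list's median log2 ratio was -0.77 against 0.07 for all genes. Ifit1, an RNA-binding antiviral protein gene, had signals of 170, 5.1, 2230.3 and 232. It was high on the array of TNF-treated wild-type cells alone, and 9.60-fold lower in the knockout under TNF. Its neighbour Ifit3 had signals of 268, 55.2, 1461 and 123, which is 11.9-fold lower. Rsad2, which encodes the antiviral enzyme viperin, had signals of 9.3, 8.0, 545 and 10.0. It was above the floor on the array of TNF-treated wild-type cells only, and at least 5.90-fold lower in the knockout. Trim25, a ubiquitin ligase of RNA sensing, had signals of 407, 178, 1079.9 and 224, with a 4.82-fold lower value in the knockout. Isg15, a ubiquitin-like modifier, went from 1619 to 418 between the genotypes under TNF, and Ifih1, an RNA sensor, from 420.4 to 151. Ifi30, a lysosomal thiol reductase, differed as much without TNF, by 7.18-fold lower with it and 6.39-fold lower without. Not all members were lower: Ifitm3 stood at 7021 and 10274 under TNF, a ratio of 0.55 on the log2 scale, and Isg20 at 0.88. In unstimulated cells 4 of 16 measured members were lower, 2 higher, and the median was -0.33. In limma's additive fit 6 of 20 members tested were lower and 2 higher, beside 10.4% and 11.4% of all genes tested. Of these members, Ifit3 (adjusted p = 0.00971) and Ifit1 (adjusted p = 0.0315) passed limma's additive fit as lower, while Rsad2 did not pass (adjusted p = 0.143).

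Promoter windows of 5 interferon-inducible genes are shown for a motif to which interferon-activated factors are known to bind. They were chosen after the values were seen, among genes that hold a match, and Ifi30, for one, holds none. They were read from RefSeq promoters (GRCm38.p6), 5' to 3' on the strand of the gene, with capitals marking each match to GAAANNGAA, the core of the interferon-stimulated response element, on either strand. Ifit1 and Ifit3 each held 3 matches, which for Ifit1 overlap in part, and the other genes 1 each. The windows lie at chr19:34640755-34640838 (+) for Ifit1, chr19:34583349-34583460 (+) for Ifit3, chr12:26456538-26456596 (-) for Rsad2, chr5:92349069-92349127 (-) for Cxcl10 and chr3:142594686-142594744 (+) for Gbp2b.
Ifit1: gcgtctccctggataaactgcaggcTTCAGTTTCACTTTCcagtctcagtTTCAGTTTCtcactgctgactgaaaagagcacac
Ifit3: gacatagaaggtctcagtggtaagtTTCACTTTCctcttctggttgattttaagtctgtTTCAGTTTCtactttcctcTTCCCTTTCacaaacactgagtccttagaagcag
Rsad2: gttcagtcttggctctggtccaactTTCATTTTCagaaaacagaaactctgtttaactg
Cxcl10: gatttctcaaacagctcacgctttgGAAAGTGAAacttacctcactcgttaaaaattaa
Gbp2b: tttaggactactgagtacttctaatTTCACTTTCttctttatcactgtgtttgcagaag

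Over 250 bases before the start, on both strands, GAAANNGAA occurred in 8.18% of the 27025 genes of the promoter table and in 7.27% of 4734 measured genes with a promoter there. The antiviral, GTPase and Ifi200 and Schlafen lists had 31 measured members, 27 of them with a promoter there, and it occurred in 15 of these. Of the 11 members that were at least 2-fold lower, 9 had a promoter there and 7 held GAAANNGAA. Among all genes at least 2-fold lower it occurred in 13.4% of 216, and among those at least 2-fold higher in 7.42% of 256. The gamma-activated sequence TTCNNNGAA occurred in 8.13% of the table and in 7 of the 27 members, and the NF-kB site core GGANNTTCC in 4.12% and in 5 of the 27. Gbp2b carries the same core as Ifit1 and was higher in the knockout, as given next. Adar, Gbp2, Gbp3, Gbp7, Ifitm2, Igtp and Irgm1 also hold it and were under 2-fold, from -0.61 for Gbp2 to 0.35 for Irgm1 on the log2 scale. Of the 15 members with the match, 7 were thus at least 2-fold lower, Gbp2b was higher and the rest were under 2-fold. Whether the match goes with a direction was not tested.

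The other interferon-related lists were mixed. Of 9 measured interferon-inducible GTPases, which act against vacuolar pathogens, Iigp1 and Irgm2 were 2.65-fold and 2.48-fold lower, and Gbp2b was higher. That is 33.3% past 2-fold, beside 10.6% of all measured genes. Another probe set of Iigp1 gave a log2 ratio of -0.43 where the one used gave -1.41. Gbp2b had signals of 5.6, 21.7, 2.4 and 918. It was above the floor only on the array of TNF-treated knockout cells, at least 9.93-fold higher there than in wild-type, and its near-identical relatives may share its probes. Gbp2 and Gbp3 stood at -0.61 and 0.27 on the log2 scale. Ifi204, an interferon-inducible DNA sensor, was 5.42-fold lower with signals of 467, 117, 971 and 179, and Slfn2, a growth regulator of lymphocytes, was 5.77-fold lower with 129.5, 32.2, 868 and 150.5. Ifi202b, a close relative of Ifi204, went the other way, at 1.2, 130.0, 2.0 and 236. For Ifi204 itself, the other measured probe set gave a log2 ratio of -0.06 where the one used gave -2.44. Its signals under TNF were 96.7 in wild-type and 56.1 in knockout cells, near or below the floor. Of 21 measured IRF, STAT, JAK, SOCS and receptor genes, 6 were lower and 0 higher, with a median of -0.24. The share past 2-fold was 28.6%, beside 10.6% of all measured genes. Ifnar2, a chain of the type I interferon receptor, had signals of 493, 222, 2802 and 716 and was 3.91-fold lower, and Ifnar1, the other chain, was 2.13-fold lower. The other measured probe set of Ifnar2 gave a log2 ratio of -0.43, against -1.97 for the one used. Irf9, the DNA-binding subunit of the type I interferon factor, was 2.54-fold lower and Socs1, a feedback inhibitor of JAK kinases, 2.34-fold lower. Irf1 differed by 0.10 and Stat3 by -0.24.

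Chemokines and cytokines differed in both directions. Ccl5, a T cell and monocyte attractant, had signals of 140.1, 9.5, 835 and 4666. It was high in both TNF-treated cultures, 5.59-fold higher in the knockout under TNF, and below the floor in unstimulated knockout cells. Cxcl5, a neutrophil attractant, was 4.84-fold higher with signals of 25.4, 190.5, 196 and 949.7. Cxcl10, an interferon-inducible T cell attractant, had signals of 51.3, 4.1, 1810.5 and 235 and was 7.70-fold lower in the knockout under TNF. Cxcl12, the ligand of Cxcr4, was 3.81-fold lower under TNF and 4.44-fold lower without it, though its other probe sets gave log2 ratios of -0.82 and -0.76 under TNF. Ccl2 and Ccl7, monocyte attractants, were similar under TNF at -0.03 and -0.14 on the log2 scale, with Ccl2 at 18414 and 18083, while without TNF their log2 ratios were -3.05 and -2.10. In all, 1 of 7 measured CC chemokines was higher and 0 lower, and of 6 CXC and other chemokines 1 was higher and 2 lower. These are 14.3% and 50% past 2-fold, beside 10.6% of all measured genes. Il6 had signals of 5.8, 3.1, 431 and 33.7 and was at least 4.66-fold lower in the knockout, whereas Lta, which encodes lymphotoxin alpha, was 2.79-fold higher with 813, 727, 256 and 716. With the probe set used, Lta was thus set apart by a low value in TNF-treated wild-type cells and not by a high value in the knockout. The other probe set of Lta was below the floor on all 4 arrays, at 17.1, 17.6, 11.4 and 11.9.

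Of 15 measured genes of adhesion, the acute phase and inflammatory enzymes, 6 were lower and 2 higher, or 53.3% beside 10.6% of all measured genes. Their median was -0.88. Ptgs2, the inducible cyclooxygenase, had signals of 23.3, 57.3, 780.5 and 85.8 and was at least 8.44-fold lower. Ch25h, cholesterol 25-hydroxylase, had signals of 109, 48.9, 3356 and 537 and was 6.24-fold lower. Has2, a hyaluronan synthase, was at least 4.99-fold lower at 109, 103, 462 and 80.1. Without TNF, Has2 differed by -0.08 on the log2 scale, Ptgs2 was below the floor in both genotypes, and Ch25h was below it in the knockout, so that its ratio of -0.23 is only a bound. Vcam1, a leukocyte adhesion receptor, had a log2 ratio of -1.04 under TNF and Icam1 one of 0.48. Ptgis, prostacyclin synthase, was 4.23-fold higher under TNF and 5.33-fold without it, and Serpina3n, an acute-phase protease inhibitor, was 4.06-fold higher under TNF and 1.44-fold without it. In limma's additive fit 2 of 16 were lower and 2 higher, beside 10.4% and 11.4% of all genes tested. Ptgs2 and Ch25h did not pass limma's additive fit (adjusted p = 0.137 and 0.0928).

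Immediate early genes were lower in the knockout under TNF in 11 of 37 measured, 1 was higher, and the median was -0.49. The share past 2-fold was 32.4%, beside 10.6% of all measured genes. Cebpd, a transcription factor of the acute phase, had signals of 1211, 891.5, 10227 and 1938.5. Both TNF-treated cultures lay above both unstimulated ones, and it was 5.28-fold lower in the knockout under TNF. Fos was at least 5.94-fold lower with signals of 122, 46.6, 549.5 and 49.7, Nr4a1 4.15-fold lower with 171, 150.5, 466 and 112, and Egr1 4.07-fold lower with 518, 369.5, 2427 and 596. Of these, Cebpd and Egr1 passed limma's additive fit (adjusted p = 0.0459 and 0.0395) and Fos and Nr4a1 did not (adjusted p = 0.0672 and 0.11). Other members stood elsewhere, Jun at -0.31, Dusp1 at 0.41 and Gadd45g at 1.26 on the log2 scale.

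**Figure D3:**
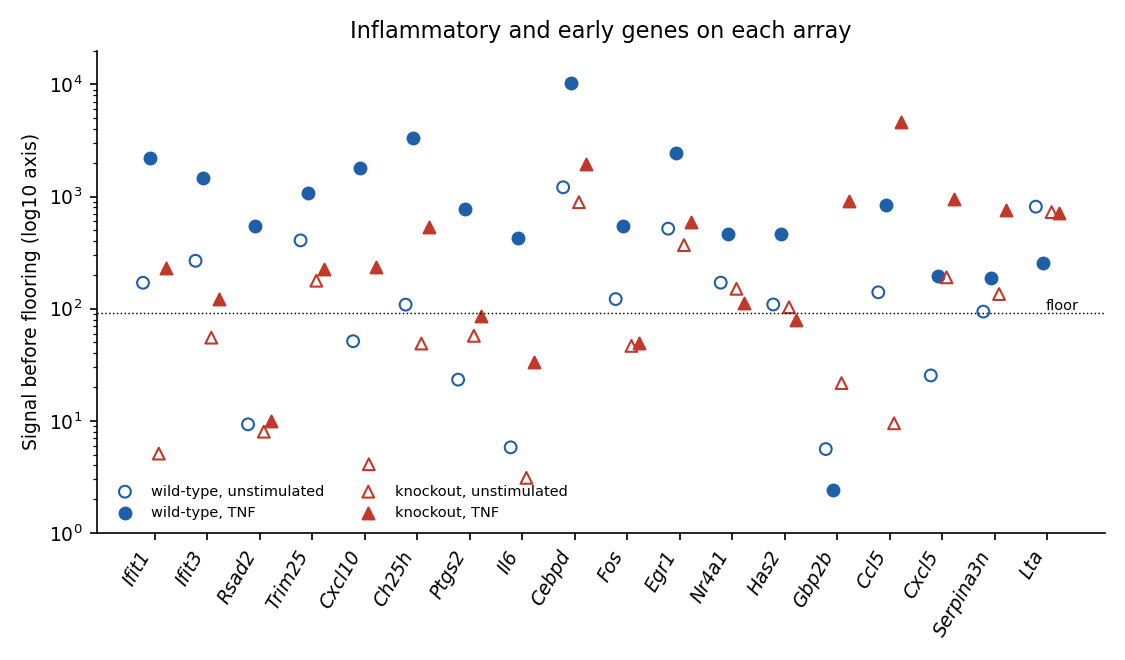
Signals before flooring of 18 inflammatory and early genes on each of the 4 arrays, on a log10 axis; blue circles are wild-type, red triangles knockout, open unstimulated, filled TNF-treated, and the dotted line is the floor of 92.5. The filled circle is the highest point for Ifit1, Ifit3, Rsad2, Cxcl10 and Cebpd, and the filled triangle for Gbp2b, Ccl5 and Cxcl5.

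Components of NF-kB and TNF receptor signalling were counted beside a share of 10.6% of all measured genes past 2-fold either way. Of 13 measured NF-kB subunits and feedback genes 0 were past 2-fold, with a median of -0.28, the largest differences being Bcl3 at 1.76-fold lower and Rela at 1.67-fold lower. Nfkbia, the inhibitor that NF-kB itself induces, stood at 3626 and 4357 under TNF, a log2 ratio of 0.26, and Tnfaip3, a deubiquitinase of the same feedback, at -0.28. Of 17 TNF receptor signalling genes 2 were lower, Tnfrsf1b, the second TNF receptor, at 2.37-fold and the adaptor gene Tank at 2.01-fold, which is 11.8% of the list, while the main receptor Tnfrsf1a stood at -0.03. None of 6 inhibitor of apoptosis genes and antagonists was past 2-fold, with Birc2 at 0.06 and Birc3 at -0.33, nor was any of 11 death receptor and caspase genes. In the Bcl-2 family Bnip3, which encodes a mitochondrial protein and is also induced by low oxygen, was 6.90-fold higher under TNF. It was 3.09-fold higher without TNF, and the 12 others of the family were under 2-fold under TNF. In limma's additive fit 1 of the 13 NF-kB genes passed, and it was lower, as were 10.4% of all genes tested.

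In the list of cell cycle and replication genes, 14 of 68 measured were at least 2-fold higher in the knockout and 0 lower, 62 had a log2 ratio above 0, and the median was 0.66. The share past 2-fold was 20.6%, beside 10.6% of all measured genes. With equal medians on all arrays 8 were higher and 1 lower, with a median of 0.47. Top2a, a topoisomerase of dividing cells, had signals of 171, 586.5, 231 and 755 and was 3.26-fold higher. Mki67, a marker of proliferation, had 139, 455, 163 and 507.5, a 3.11-fold difference. Both were as far apart without TNF, at 3.44-fold and 3.27-fold. Rrm2 and Rrm1, the subunits of ribonucleotide reductase, were 3.05-fold and 2.59-fold higher, and Tk1, thymidine kinase, 2.78-fold. Without TNF 12 of 68 were higher and 0 lower, with a median of 0.54. In limma's additive fit 35 of 68 were higher, among them Top2a (adjusted p = 0.00202) and Mki67 (adjusted p = 0.00293), beside 11.4% of all genes tested.

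Among inhibitors of the cycle, Cdkn2a and Cdkn2b, adjacent tumour suppressor genes on chromosome 4, were near or below the floor in the knockout. Cdkn2a had signals of 2152, 72.3, 1316 and 107, which is 12.3-fold lower under TNF, and Cdkn2b had 1577, 6.3, 1722 and 3.2, at least 18.6-fold lower. Genes known as p53 targets differed in both directions. Ccng1 was 3.98-fold higher with 407, 1246.5, 322 and 1282, Perp at least 12.8-fold higher with 15.9, 1545, 4.0 and 1181, and Cdkn1a higher by 1.17 on the log2 scale, while Gadd45a was lower at 1821 and 806 under TNF, a log2 ratio of -1.18, and Btg2 stood at -0.49. Cdkn1c, an imprinted inhibitor, was at least 5.06-fold higher. Of 21 measured in this list, 8 were higher and 3 lower, or 52.4% beside 10.6% of all measured genes. Perp lies on chromosome 10, which is described below.

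Genes of body position differed in both directions and in both states. Of 24 measured Hox genes, 4 were higher and 6 lower, or 41.7% beside 10.6% of all measured genes. The 4 measured genes of the HoxD cluster had a median of 1.78 and 3 were higher, while in HoxB 3 of 6 were lower and 0 higher, and in HoxC 1 of 5 was lower. Hoxd8 had signals of 128, 520.2, 99.8 and 408, 4.09-fold higher under TNF, and Hoxd10 had 32.7, 458, 23.3 and 319, at least 3.45-fold higher. Hoxc8 was 8.12-fold lower with 1644, 162, 1146 and 141, and Hoxa7 at least 5.10-fold lower with 972, 23.4, 472 and 22.9. Each of the 10 Hox genes past 2-fold under TNF was past 2-fold in the unstimulated cells as well. Of 32 limb and mesenchymal transcription factors 7 were higher and 5 lower, or 37.5% beside 10.6% of all measured genes. Pitx1 and Shox2, factors of limb development, were higher by 12.7-fold and by at least 3.91 on the log2 scale, with Pitx1 at 175, 3149.5, 161 and 2053. Twist2, a factor of the dermis, was 4.31-fold lower.

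Imprinted genes also split. Of 19 measured, 6 were higher and 6 lower, or 63.2% beside 10.6% of all measured genes. Mest had signals of 304.5, 8637.5, 262 and 7443, Grb10 had 204, 3391, 27.6 and 1703 and Peg3 had 455, 2196, 121.5 and 1396, all higher in both knockout cultures. Meg3, a maternally expressed noncoding RNA, was 6.46-fold lower with 4047, 558, 4263 and 660.1. In the IGF system, Igf1 was 6.65-fold and Igfbp4 5.57-fold higher and Igfbp6 3.93-fold lower, but the other measured probe set of Igf1 gave a log2 ratio of 0.42 where the one used gave 2.73, and that of Igfbp4 gave 0.40 against 2.48.

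Matrix genes followed the same pattern of gene-by-gene difference. Of 51 measured collagen, laminin and glycoprotein genes 7 were higher and 8 lower, with a median of -0.09, and the most abundant collagens were alike. The share past 2-fold was 29.4%, beside 10.6% of all measured genes. Col8a1, a short-chain collagen, was 12.8-fold lower with 2484, 174, 2350.4 and 184, and Thbs2, an inhibitor of vessel growth, 5.67-fold lower. Vcan, a large proteoglycan, was 5.20-fold and Ccn5, a secreted regulator, 6.59-fold higher. Fmod, a relative of decorin, was 6.68-fold higher with 1000.7, 7048, 860.0 and 5742, opposite to Dcn and Lum. Timp3, a matrix-bound metalloproteinase inhibitor, was higher at 1457, 3857, 1265 and 5567, a log2 ratio of 2.14 under TNF, and Mmp3, stromelysin, was 4.83-fold lower. Of 20 contractile genes 3 were higher and 0 lower with a median of 0.40, led by Csrp2 at 5.94-fold. That is 15% past 2-fold, beside 10.6% of all measured genes. Csrp2 and Cnn2 lie on chromosome 10, and 1 of the 18 on other chromosomes was higher, beside 4.82% of all measured genes not on chromosome 10. Secreted Wnt antagonists went both ways, with Sfrp2 16.3-fold higher, Dkk3 at 472, 5668, 283 and 4253, and Frzb at least 16.5-fold and Sfrp1 4.39-fold lower. Of 21 measured genes of the VEGF, PDGF and FGF list 5 were lower and 1 higher, or 28.6% beside 10.6% of all measured genes. The growth factors Vegfd, Vegfc and Vegfa were 4.52-fold, at least 4.94-fold and 2.29-fold lower, and Eng was 4.91-fold lower. Angpt1 was higher at 10.3 and 199 under TNF, while Vegfb and Pgf stood at -0.28 and 0.07 on the log2 scale. Fst and Grem1, secreted antagonists of activins and BMPs, were 9.82-fold and 3.75-fold lower.

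**Figure D4:**
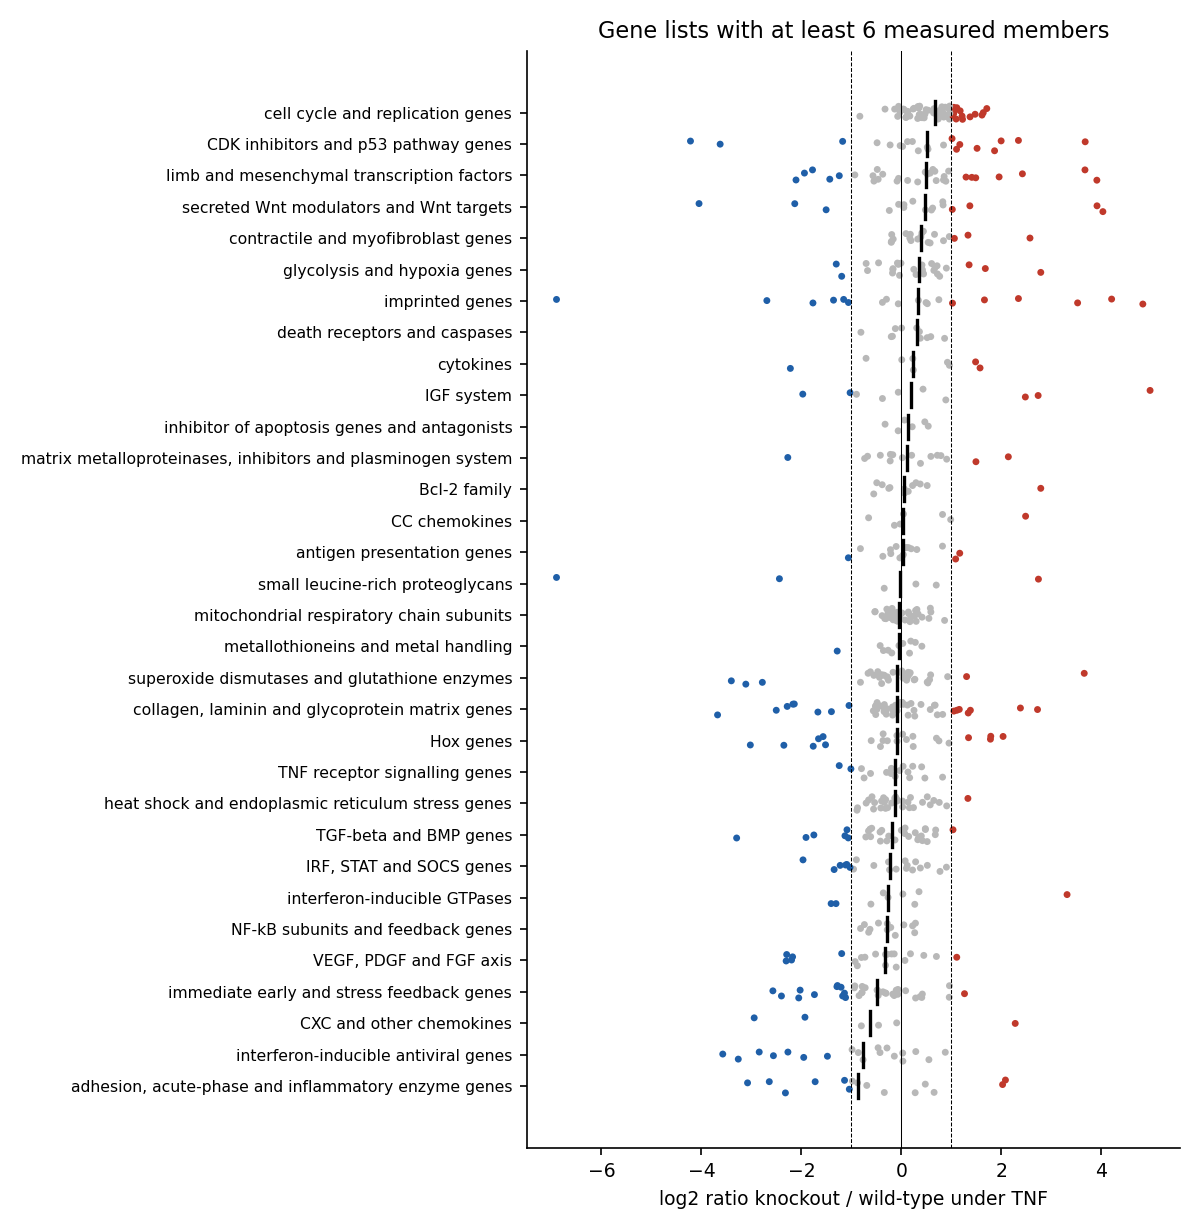
Log2 ratio of Xiap knockout to wild-type under TNF for each measured member of the gene lists with at least 6 measured members, ordered by list median (black bar); red and blue points are past 2-fold. The cell cycle list has the highest median at 0.66 with 0 lower members, and the adhesion, acute-phase and inflammatory enzyme list the lowest at -0.88.

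The respiratory chain and heat shock lists had few or no genes past 2-fold. None of 40 measured respiratory chain genes was past 2-fold, with a median of -0.05, and 1 of 32 heat shock and endoplasmic reticulum stress genes was. Among 34 antioxidant and glutathione genes 2 were higher and 3 lower, or 14.7% beside 10.6% of all measured genes. Sod3, the extracellular superoxide dismutase, was 12.6-fold higher. Gpx3, the plasma glutathione peroxidase, was 8.64-fold, Gstm2 6.87-fold and Mgst1 at least 10.6-fold lower. Another measured probe set of Gstm2 went the other way, at 0.62 on the log2 scale.

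Some genes were past 2-fold under TNF although their floored signals were nearly equal without it. For Cxcl10, Il6, Ptgs2, Rsad2 and Gbp2b both unstimulated signals were below the floor, and for Ch25h that of the knockout, so equality was not measured in these. The 8 lowest of them were inflammatory and early genes already given (Ch25h, Cxcl10, Il6, Has2, Nr4a1, Ptgs2, Rsad2), with Rgs16, a regulator of G protein signalling, at 178, 155, 574 and 136. In each of these the array of TNF-treated wild-type cells was the highest of the 4. Among the 8 highest, Prrc2a had signals of 587, 596, 167 and 623, Mrm3 448.7, 454.5, 110.4 and 386, Lap3 342, 377.5, 114 and 390.2, and Polr2a, the largest subunit of RNA polymerase II, 1526, 1663, 831 and 2372. With the probe sets used, the array of TNF-treated wild-type cells was the lowest in each of the 8, although for Gbp2b the wild-type signals were below the floor in both states. Other measured probe sets gave smaller log2 ratios under TNF, of 0.61 for Polr2a, 0.66 for Mrm3 and 1.02 for Prrc2a. In wild-type cells without and with TNF, that of Polr2a had 1133 and 1093 and that of Mrm3 104.5 and 98.9, so both changed little there. Choosing genes by a gap between both TNF arrays favours such a position. Among all genes past 2-fold under TNF, both wild-type arrays differed by at least 2-fold in 42 of the higher and 66 of the lower genes, and both knockout arrays in 14 and 20. The same share of all measured genes was not counted, so no excess can be read from these numbers. The array of TNF-treated wild-type cells also had the lowest median signal, and its part in these counts was not tested.

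Chromosome 10 stood apart from the other chromosomes, as was seen only after the data had been examined. Of 267 measured genes there, 60 (22.5%) were at least 2-fold higher in the knockout under TNF and 8 lower, against 1.57% to 9.70% higher on the other chromosomes with the Y left out. Their median log2 ratio was 0.62, with quartiles of 0.27 and 0.93, and 231 of them (86.5%) lay above 0. The medians of the other chromosomes ranged from -0.17 to 0.32, the next highest being chromosome 7 at 0.32 and chromosome 13 at 0.28. In unstimulated cells, on different arrays, the chromosome 10 median was 0.53 and 57 genes (20.7%) were higher, 33 of them in both states. Divided by gene order into 6 blocks of 44 or 45 genes, the chromosome had medians of 0.56, 0.76, 0.56, 0.52, 0.74 and 0.58, so the shift ran along its whole length. Perp, Igf1, Csrp2, Timp3, Kitl, Ddit4 and Pfkl lie there and were among the higher genes, whereas Dcn, Lum and Dusp6 lie there and were lower. Chromosome 10 held 18.2% of all higher genes, and without it 269 of 5585 genes (4.82%) were higher and the median was 0.05. The cell cycle list was higher without it as well, in 12 of 64 genes. The cause was not tested.

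**Figure D5:**
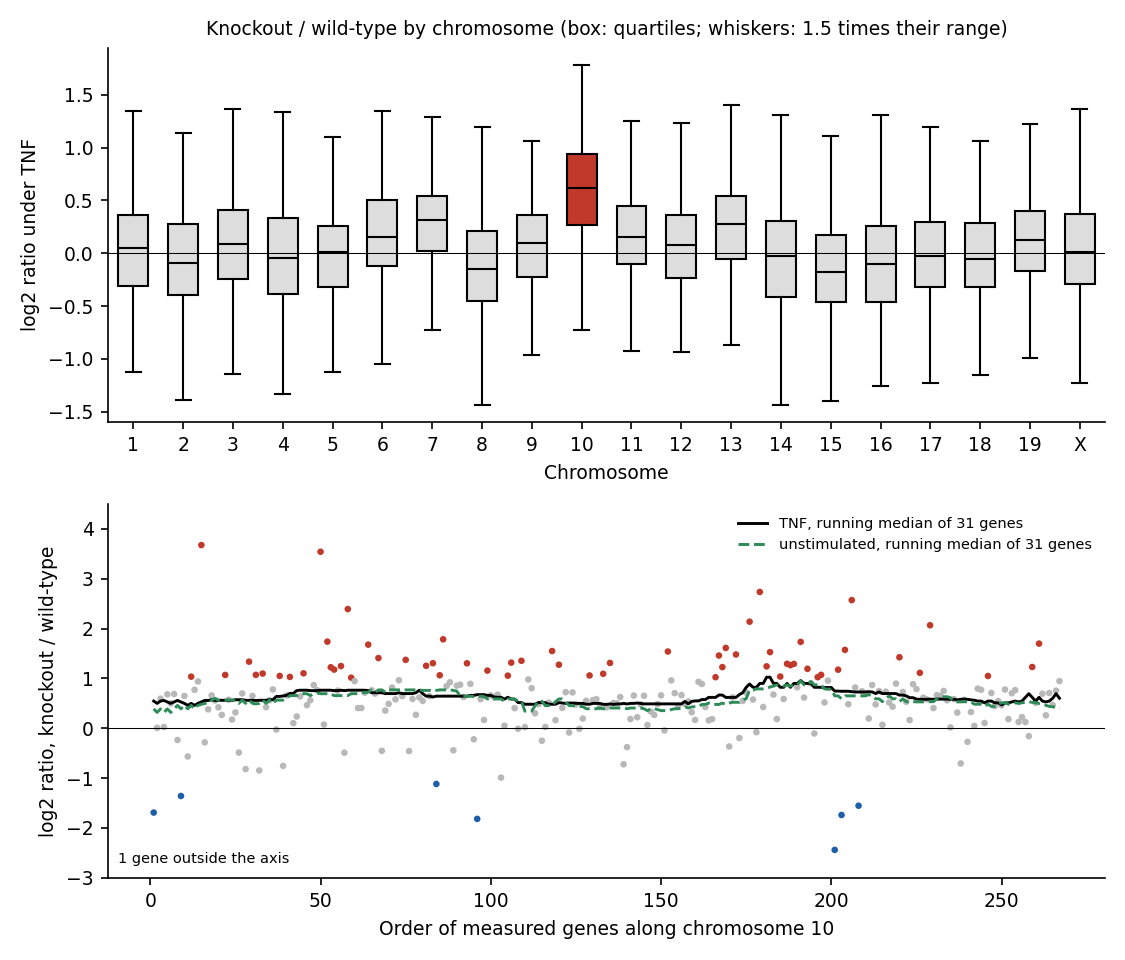
Top, log2 ratio of Xiap knockout to wild-type under TNF by chromosome (box, quartiles with the median; whiskers, up to 1.5 times the quartile range), with chromosome 10 in red. Bottom, the same ratio for 267 measured genes in their order along chromosome 10, with running medians of 31 genes under TNF (solid) and in unstimulated cells (dashed); both lines stay above 0 throughout.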

How the data were processed

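RNA of 4 cultures was profiled, 1 Affymetrix U74Av2 array for each combination of genotype and treatment, grouped by sample title. The deposited values are intensities of probe sets on a linear scale, from MAS5 according to the submitters' processing notes. The 4 columns have the same trimmed mean, so arrays had been scaled before they were deposited. Version, background settings and detection calls are not stated in the labels. Names came from the annotation table of the platform, and 8237 of 8251 genes matched the RefSeq gene table by Entrez identifier. The 66 control probe sets, 1193 without a symbol and 396 with several were left out of gene counts. Where a gene had more than 1 probe set, as 2073 did, the brightest on average was used.

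Signals were raised to a floor, set at the 40th percentile of all non-control signals, and log2 was taken, which understates differences of dim genes. Genes at or past 2-fold were counted. The additive model was fitted with limma 3.58.1 (lmFit, eBayes with trend, 2-sided) in R 4.3.3, and the rest computed with Python 3.11.15. It was tested on 20 simulated sets of 6174 genes: genotype changes of 1 (log2) were recovered in 75.0% of genes at the median and those of 2 in 100%, while false calls were 8.48% of calls at the median and 34.7% at most. An earlier noise model for the simulation also gave false calls above 5%. The number of arrays limits the precision.

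Named genes were the 15 highest and 15 lowest under TNF, up to 5 members past 2-fold of each of 35 lists (or the 2 largest), the 8 genes past 2-fold in opposite directions in both states or fewer, the 8 largest each way with nearly equal unstimulated signals, Xiap and markers. List members outside this rule, the chromosome summary, the counts of genes apart between arrays of 1 genotype and the promoter windows were chosen after values were seen. The members and lists were chosen with earlier results of these data known. Alternatives were 2 other normalizations, 3 other floors, a stricter filter on dim genes, and other treatments of multiple probe sets.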

Additional observations from a re-analysis of the deposited data

Results flagged for a closer look

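Chrne, which encodes a subunit of the muscle acetylcholine receptor, was the 1 gene past 2-fold in opposite directions in both states. Its signals were 329 in unstimulated wild-type, 136 in unstimulated knockout, 165 in TNF-treated wild-type and 412 in TNF-treated knockout cells. On the log2 scale the genotypes differed by -1.27 without TNF and by 1.32 with it, a difference of 2.59, and this difference was not tested. Another measured probe set of Chrne gave -0.20 and 1.09.

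Probe sets left out of the gene counts, because they have no gene symbol or several, also differed. Of 724 measured under TNF, 49 passed 2-fold upward in the knockout and 36 downward, 85 in all.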

How the results depend on the processing

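Under TNF, 702 genes were at least 2-fold higher with the floor at the 20th percentile, 150 with it at the 60th and 1019 with no floor, and 180 were lower with the floor at the 60th percentile, 598 with none and 441 with equal medians. In both states 96 were higher and 104 lower with the floor at the 60th percentile, and 337 and 293 with no floor. The additive fit gave 465 higher and 427 lower genes with the mean of a gene's probe sets, and 409 lower without an intensity trend. The higher genes made up 52.9% of those past 2-fold as reported, 35.2% with equal medians, 45.6% after quantile normalization and 63.0% with no floor. A higher floor leaves fewer dim genes to pass 2-fold. For the other shifts the cause was not tested. No named gene past 2-fold changed direction under the alternatives that gave it a value, and with the floor at the 60th percentile 93 of 125 stayed past 2-fold. The chromosome 10 median stayed between 0.42 and 0.62 under 8 alternatives chosen after seeing the data. No paired analysis was possible because each group has 1 array and the labels carry no replicate numbers. For the same reason no replicate could be left out. Dim genes are limited by signal over background.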
